A study of Mus musculus with 30 samples.

Results

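Osteoclasts are the multinucleated, macrophage-derived cells that dissolve bone mineral and matrix. This account follows 8 genes through the mouse aorta: Acp5, Ctsk, Atp6v0d2 and Calcr, which are markers of osteoclasts, Nfatc1, the transcription factor of their differentiation, and the ligand Tnfsf11 (RANKL), its receptor Tnfrsf11a (RANK) and its soluble decoy Tnfrsf11b (osteoprotegerin). The members are the genes whose symbol stands in the gene name column of the array files. All 8 were found, on 11 of the 55657 probes that stand for 34728 gene names, and all 11 probes passed the filter on dim probes. Total RNA of the aorta had been measured on 30 single-colour expression arrays, 1 per sample and 3 in each of 10 groups.

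The uMT groups came from mice with a disrupted immunoglobulin mu gene, a line without mature B cells, and the WT groups from wild type mice. Both genotypes carry the strain label C57BL/6, and ages are not stated in the labels. In each genotype, CaCl2 at 0.5 M had been laid around the abdominal aorta and the tissue taken at day 7 or day 42. Sham mice had the operation with saline at the same days, and pre mice had no operation. The tissue label is abdominal aortic aneurysm for every sample, the sham and pre samples included. The labels do not say whether the 3 samples of a group came from separate mice, so p values measure the spread between these samples.

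RANKL, made by stromal cells and lymphocytes, binds RANK on macrophage-lineage cells and, through TRAF6, NF-kB and calcium signalling, turns on Nfatc1. Nfatc1 in turn drives the genes of fusion, acid secretion and matrix breakdown, while osteoprotegerin binds RANKL and blocks it. Macrophages outside bone can switch on parts of the same programme, and calcified arteries are one tissue in which osteoclast-like cells have been described.

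Levels below are log2 intensities centred on the 75th percentile of each array, and changes are differences of group means on that log2 scale ± the standard error of the fit. Changes were tested with limma over 23268 gene names, and a gene counts as changed at a Benjamini-Hochberg adjusted p under 0.05. Between 36.6% and 61.8% of probes were well above background on an array. The lowest share belonged to WT sham day 42 replicate 2, which had a slide to itself and was scanned on another day, and whose 75th percentile was 36.1 intensity units against 82.3 to 428 on the other arrays. Calls of the 8 genes that rest on it are given with and without it. For the gene lists and the macrophage and fibroblast markers, counts without it are given. Values of single list or marker genes, Ibsp included, come from the fit of all arrays unless stated. Which of their WT changes against sham at day 42 hold without it is mostly not given. Slides nearly followed the groups: no slide held both CaCl2 and sham arrays of uMT mice, nor both for WT mice at day 7, and at day 42 only WT sham replicate 3 lay on the slide of the WT CaCl2 arrays. There, slide and treatment cannot be told apart. All 6 smooth muscle markers were well above background on all 30 arrays on which, of the 8 osteoblast markers, Dmp1 was so on 0, Sp7 on 2, Bglap on 3, Runx2 on 6, Bglap2 on 19, Ibsp on 21, Alpl on 24 and Phex on 26 arrays. Ibsp, a bone matrix protein also made by osteoclasts, rose after CaCl2 at day 42, by 3.65 ± 0.77 in uMT mice (adjusted p = 0.00563) and 3.44 ± 0.77 in WT mice (adjusted p = 0.00634). It is 1 of 5 measured osteoblast markers, and 6.33% and 10.4% of all genes were called there. At day 7 its difference was -0.2 ± 0.77 in uMT mice (adjusted p = 0.934). In WT mice it was then -2.41 ± 0.77 (adjusted p = 0.0623, or 0.0365 without WT sham day 42 replicate 2). The mean level of the 5 markers at day 42 ran in uMT mice from -3.39 to -2.35 after CaCl2 and -4.13 to -3.22 after sham. In WT mice it ran from -3.16 to -0.83 and -3.37 to -3.16. In whole tissue, more cells of a type and more RNA per cell cannot be told apart.

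Atp6v0d2, Acp5, Ctsk and Tnfsf11 were the genes that passed in at least 1 comparison of CaCl2 with sham aorta. In uMT mice at day 7, 0 of 8 passed the test, against 0.894% of all genes (3 of 8 without WT sham day 42 replicate 2, against 9.82%). There 4 of 8 had an unadjusted p under 0.05, a threshold at which the share over all genes was not taken. In uMT mice at day 42, 1 of 8 passed, Tnfsf11, which was higher, against 6.33% of all genes (4 of 8 without that array, against 15%). At day 7 in WT mice 1 of 8 passed, also Tnfsf11 and also higher, against 6.59% of all genes (4 of 8 without that array, against 18.4%). At day 42 in WT mice 3 of 8 passed, Atp6v0d2, Acp5 and Ctsk, all higher, against 10.4% of all genes (2 of 8 without that array, against 12.3%). The median change of the 8 genes was 0.86 and 1.70 in uMT mice at days 7 and 42, beside medians over all genes of -0.02 and -0.04, and 1.23 and 2.08 in WT mice, beside 0.09 and 0.05.

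**Figure D1:**
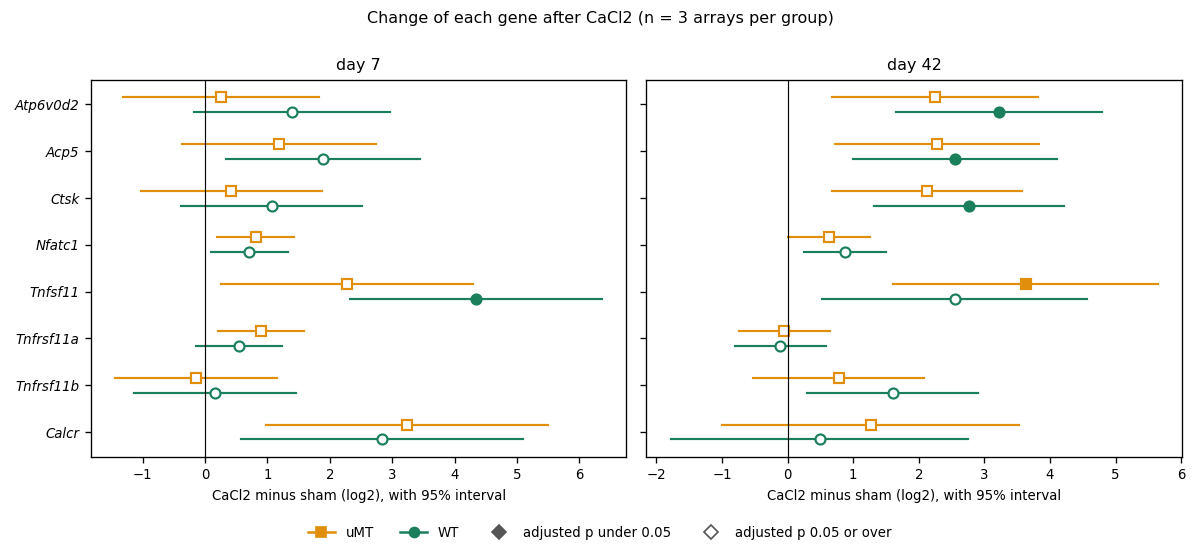
Change of each of the 8 genes after CaCl2 relative to sham on the log2 scale (x axis) at day 7 and day 42, for uMT (squares) and WT (circles) mice, n = 3 arrays per group; lines are 95% intervals of the fit and filled symbols mark an adjusted p under 0.05. Tnfsf11 is filled in WT mice at day 7 and in uMT mice at day 42, and Atp6v0d2, Acp5 and Ctsk are filled in WT mice at day 42.

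Atp6v0d2 encodes the d2 subunit of the vacuolar proton pump, which acidifies the space under the osteoclast and takes part in the fusion of its precursors. It was not well above background in unoperated aorta and was bright after either operation. Its level in uMT mice was 1.35, 2.34 and 0.35 in sham aorta at day 7 and 1.85, 1.91 and -0.35 in sham aorta at day 42, against -5.43, -4.82 and -4.65 in pre aorta. In WT mice it was 2.04, 2.62 and 2.27 in sham aorta at day 7 and -0.52, -1.98 and 1.41 in sham aorta at day 42, against -6.07, -5.53 and -4.77 in pre aorta. No sham array reached down to a pre array in either genotype. In processed signal, WT sham arrays at day 7 had 1760, 2460 and 1200 intensity units, against 3.67, 6.70 and 9.43 units on WT pre arrays, which all lie on the same slide.

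None of the 6 pre arrays had Atp6v0d2 well above background, so its folds are lower bounds. Its probes passed the filter through operated groups alone, so their entry into the test depended on groups where the gene was high. Sham aorta at day 7 was at least 30.8-fold higher than pre aorta in uMT mice (6.31 ± 0.75, adjusted p = 8.38e-05) and at least 104-fold higher in WT mice (7.76 ± 0.75, adjusted p = 4.26e-06). At day 42 the bounds were at least 26.6-fold in uMT mice (6.10 ± 0.75, adjusted p = 0.000242) and at least 16.3-fold in WT mice (5.09 ± 0.75, adjusted p = 0.00292), where 2 of 3 sham arrays were well above background. Without WT sham day 42 replicate 2 that WT change was 5.90 (adjusted p = 0.00137). The WT call at day 42 was lost with normexp and quantile normalization (1.84, adjusted p = 0.175) and in a fit of the 2 groups alone (adjusted p = 0.759). The other 3 comparisons were called under all 19 alternatives run for each.

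Among the 8 genes, Atp6v0d2 was the only one called in sham against pre aorta at day 7, 1 of 8 in each genotype, where 2.54% of all genes passed in uMT mice and 2.37% in WT mice. With WT sham day 42 replicate 2 left out, Ctsk passed as well, making 2 of 8 in each genotype against 12.9% and 4.1% of all genes. At day 42 the count was 3 of 8 in uMT mice against 17.4% of all genes, with Tnfrsf11a and Calcr, and 1 of 8 in WT mice against 0.168%. With WT sham day 42 replicate 2 left out these were 3 of 8 against 40.3% and 1 of 8 against 0.211%. In WT mice Tnfrsf11b (-1.87, adjusted p = 0.0332) and Calcr (3.50, adjusted p = 0.0278) passed as well without WT sham day 42 replicate 3.

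The mean level of 10 macrophage markers ran in uMT mice from 2.60 to 3.27 after sham at day 7 and from 0.99 to 2.92 at day 42, against 2.08 to 2.34 in pre aorta. In WT mice it ran from 3.27 to 3.50 after sham at day 7 and from 0.45 to 2.96 at day 42, against 0.87 to 1.5 in pre aorta. At day 7, 1 of the 10 rose in uMT mice and 5 in WT mice (2 and 8 without WT sham day 42 replicate 2), and none fell. At day 42, 2 rose and 1 fell in uMT mice (3 and 5 without it), and 0 were called in WT mice in either fit. Of all genes, 2.54% in uMT mice and 2.37% in WT mice were called at day 7 (12.9% and 4.1% without that array). At day 42 the shares were 17.4% and 0.168% (40.3% and 0.211% without it). Their part in the changes of Atp6v0d2 was not tested.

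At day 42 the Atp6v0d2 level was higher after CaCl2 than after sham. Aortas of uMT mice had 3.65, 3.03 and 3.46 after CaCl2, and WT aortas had 2.52, 2.45 and 3.64, all above the sham arrays of their genotype and day. The change relative to sham was 3.23 ± 0.75 in WT mice, or 9.4-fold (adjusted p = 0.00782), and remained called without WT sham day 42 replicate 2 at 2.42 (adjusted p = 0.0429). In uMT mice it was 2.25 ± 0.75 (adjusted p = 0.0784), which passed without that array (adjusted p = 0.031). Within the slide that held both WT groups, the CaCl2 arrays were 1.46 ± 0.95 above the single sham array (adjusted p = 0.586), and the call was also lost in a fit of the 2 groups alone (adjusted p = 0.318).

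At day 7 the difference of Atp6v0d2 from sham did not pass. It was 0.26 ± 0.75 in uMT mice (adjusted p = 0.916) and 1.40 ± 0.75 in WT mice (adjusted p = 0.31). Against pre aorta in place of sham, CaCl2 aorta at days 7 and 42 was higher by 6.57 and 8.34 in uMT mice and by 9.16 and 8.32 in WT mice, with adjusted p values between 5.32e-08 and 1.49e-05. The second, dimmer probe of Atp6v0d2 gave the same calls in uMT sham aorta at both days and in WT sham aorta at day 7 (adjusted p between 3.71e-05 and 0.00102) and missed the threshold in WT sham aorta at day 42 (3.91, adjusted p = 0.0505). Both probes lie on mm9 chromosome 4, at 19804304 to 19804363 and 19805367 to 19805426, on the minus strand of transcript NM_175406.

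**Figure D2:**
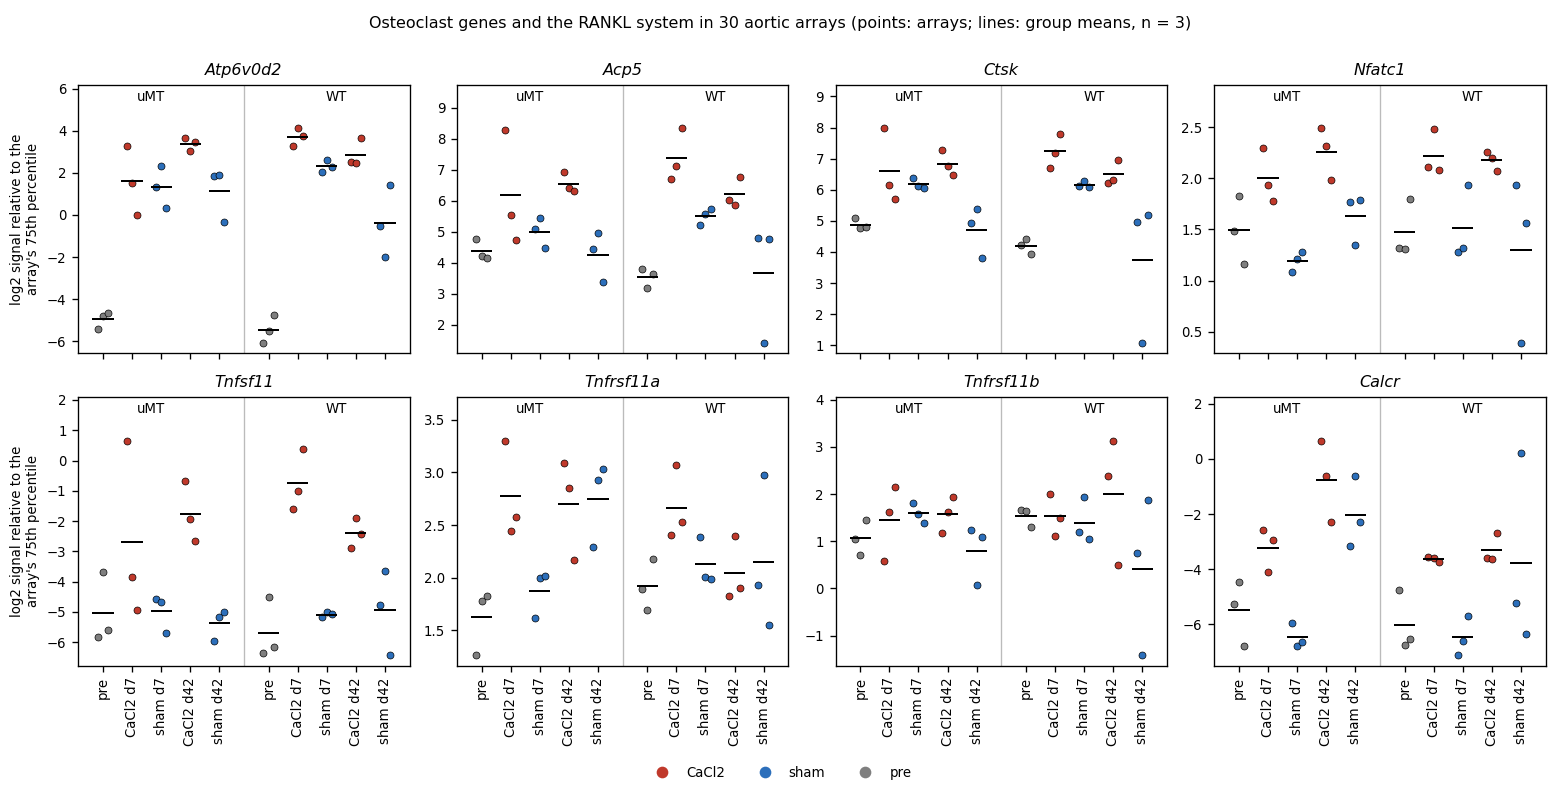
Level of each of the 8 genes on all 30 arrays, as log2 intensity centred on the 75th percentile of the array (y axis), by condition for uMT mice (left of each panel) and WT mice (right); points are arrays and lines are group means, n = 3. Atp6v0d2 lies between -6.07 and -4.65 on the pre arrays and at -1.98 or above on all operated ones, Tnfsf11 lies at -2.88 or above on the CaCl2 arrays except uMT day 7 replicates 2 and 3, at -3.84 and -4.92, and the lowest Acp5 and Ctsk values, 1.42 and 1.08, belong to WT sham day 42 replicate 2.

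Acp5 encodes tartrate-resistant acid phosphatase, the enzyme used to stain osteoclasts, and Ctsk encodes cathepsin K, the protease that cuts collagen in the resorption space. Both are also made by activated macrophages, and both are known targets of the transcription factor MITF, which binds a motif called the M-box. Their promoters are shown because the levels of the pair ran in parallel over these arrays (r = 0.951). The sequences are the 250 bases before the RefSeq start, from RefSeq's GRCm38.p6 tables, 5′ to 3′ on the gene's strand. The Acp5 window, 1 of 3 listed for the gene, is chr9:22130599-22130848 on the minus strand, and the Ctsk window is chr3:95498960-95499209 on the plus strand. Capitals mark a match to the M-box type motif TCANNTGA, which is its own reverse complement in form and was searched on both strands. Its middle letters NN were left free and differ between the genes, CA in Acp5 and GA in Ctsk.
Acp5: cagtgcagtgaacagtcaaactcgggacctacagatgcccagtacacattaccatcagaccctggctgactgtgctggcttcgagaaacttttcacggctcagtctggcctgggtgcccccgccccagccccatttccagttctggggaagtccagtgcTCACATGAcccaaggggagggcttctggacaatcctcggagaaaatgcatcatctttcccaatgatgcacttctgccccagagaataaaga
Ctsk: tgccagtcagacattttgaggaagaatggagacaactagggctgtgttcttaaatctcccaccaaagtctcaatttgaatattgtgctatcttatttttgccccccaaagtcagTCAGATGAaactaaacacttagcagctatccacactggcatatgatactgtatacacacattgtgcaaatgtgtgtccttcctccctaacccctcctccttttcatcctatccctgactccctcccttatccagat

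The match lies 91 bases before the Acp5 start and 136 bases before the Ctsk start. Such a match stands in 7.1% of the 32851 promoter windows of this length, and in neither of the other 2 Acp5 windows. The Acp5 window shown is thus the only one of the gene with a match, and the 7.1% does not allow for a choice among windows. Windows of 5 of the 8 genes were searched, and those of Tnfsf11, Tnfrsf11a and Calcr hold no match. Atp6v0d2 and Tnfrsf11b had no window listed. Windows on chromosome 18, where Nfatc1 lies, were left out of the search of the 8 genes. The NFAT core GGAAA, searched on both strands, occurs in 55.6% of all windows. It is found 2 times in the Acp5 window shown, 1 time in the Tnfsf11 window and 0 times in the Ctsk window. Also searched were the AP-1 motif TGANTCA, in 6.7% of all windows, and the PU.1 core GAGGAA, in 23.3%. In the windows shown, AP-1 has 0 matches, and PU.1 has 2 in Ctsk and 0 in Acp5. A match describes the letters only.

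Acp5 was bright on all 30 arrays. In uMT mice its level was 8.27, 5.55 and 4.75 after CaCl2 at day 7, against 5.10, 5.44 and 4.47 after sham. At day 42 it was 6.92, 6.41 and 6.32 after CaCl2 in uMT mice, against 4.46, 4.95 and 3.38 after sham. The uMT groups overlap at day 7 and are apart at day 42. In WT mice the levels at day 7 were 6.70, 7.13 and 8.34 after CaCl2, against 5.20, 5.58 and 5.72 after sham. At day 42 they were 6.02, 5.86 and 6.77 after CaCl2 in WT mice, against 4.81, 1.42 and 4.76 after sham, the 1.42 being replicate 2. The WT groups do not overlap at either day.

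The Acp5 change passed the test in WT mice at day 42, at 2.55 ± 0.75 or 5.87-fold (adjusted p = 0.0294), but not without WT sham day 42 replicate 2 (1.43, adjusted p = 0.156), nor when any 1 of the 3 WT CaCl2 arrays was left out (adjusted p between 0.0602 and 0.114). In uMT mice at day 42 it was 2.28 ± 0.75 (adjusted p = 0.0696), and the adjusted p was 0.0122 without that WT array, where the standard error shared by all groups was 0.59. At day 7 it was 1.19 ± 0.75 in uMT mice (adjusted p = 0.477) and 1.89 ± 0.75 in WT mice (adjusted p = 0.14, or 0.0311 without that array). The 2 Acp5 probes, on mm9 chromosome 9 at 21931175 to 21931234 and 21931190 to 21931249, overlap and are not independent.

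Ctsk was also well above background on every array. Its level in uMT mice at day 42 was 7.29, 6.75 and 6.47 after CaCl2, against 4.93, 5.39 and 3.80 after sham. WT aortas at day 42 had 6.22, 6.32 and 6.96 after CaCl2, against 4.96, 1.08 and 5.18 after sham. The groups do not overlap in either genotype. The change was 2.13 ± 0.70 in uMT mice (adjusted p = 0.0707, or 0.00213 without WT sham day 42 replicate 2) and 2.76 ± 0.70 in WT mice (6.79-fold, adjusted p = 0.0127). In WT mice it was 1.43 without that array (adjusted p = 0.0519), and 2.53 without WT CaCl2 day 42 replicate 3 (adjusted p = 0.0582). Within the slide that held both WT groups the change was 1.33 ± 0.91 for Ctsk (adjusted p = 0.621) and 1.45 ± 1.02 for Acp5 (adjusted p = 0.64).

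At day 7 Ctsk was higher in every sham than in every pre array. Sham aorta of uMT mice had 6.39, 6.13 and 6.06, against 5.09, 4.76 and 4.79 in pre aorta. Sham aorta of WT mice had 6.13, 6.27 and 6.08, against 4.23, 4.41 and 3.92 in pre aorta. The groups are apart in both genotypes, at 1.31 ± 0.70 in uMT mice (adjusted p = 0.363, or 0.0463 without WT sham day 42 replicate 2) and 1.97 ± 0.70 in WT mice (adjusted p = 0.214, or 0.00738 without it). In the WT comparison all arrays share 1 slide, and with slide as a fixed block the change of 1.97 had an adjusted p of 0.0124. At day 42 the sham and pre means of Ctsk were 4.71 ± 0.82 and 4.88 ± 0.19 in uMT mice, and 3.74 ± 2.30 and 4.19 ± 0.25 in WT mice (SD, n = 3). The macrophage marker means given above were also higher on every sham array at day 7 than on every pre array of the same genotype, and their part in these Ctsk differences was not tested.

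Macrophage markers moved with these 3 genes. The mean level of the 10 markers ran from 2.70 to 4.12 after CaCl2 and from 2.60 to 3.27 after sham in uMT mice at day 7, and from 3.81 to 4.29 after CaCl2 and from 0.99 to 2.92 after sham at day 42. In WT mice it ran from 4.09 to 4.53 after CaCl2 and from 3.27 to 3.50 after sham at day 7, and from 3.82 to 4.34 after CaCl2 and from 0.45 to 2.96 after sham at day 42. Of the 10 markers, 0 and 5 rose in uMT mice at days 7 and 42, and 2 and 8 in WT mice, against 0.894% and 6.33% of all genes in uMT mice and 6.59% and 10.4% in WT mice. With WT sham day 42 replicate 2 left out these were 0 and 9 in uMT mice and 4 and 4 in WT mice, against 9.82% and 15% of all genes in uMT mice and 18.4% and 12.3% in WT mice. All 10 had signal well above background on at least 27 of the 30 arrays, and their part in the changes of Atp6v0d2, Acp5 and Ctsk was not tested.

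Nfatc1, the switch of osteoclast differentiation, passed in none of the 4 comparisons on its brighter probe. Its level in uMT mice was 2.29, 1.93 and 1.78 after CaCl2 at day 7, against 1.08, 1.22 and 1.28 after sham. WT aortas had 2.11, 2.48 and 2.08 after CaCl2 at day 7, against 1.28, 1.32 and 1.94 after sham. CaCl2 arrays lay above sham arrays in all 4 comparisons. The changes were 0.81 ± 0.30 and 0.63 ± 0.30 in uMT mice at days 7 and 42 (adjusted p = 0.183 and 0.252), and 0.71 ± 0.30 and 0.88 ± 0.30 in WT mice (adjusted p = 0.17 and 0.0607). At day 7 they passed without WT sham day 42 replicate 2, with adjusted p values of 0.0248 in uMT mice and 0.0267 in WT mice. In WT mice at day 42 the change passed with quantile normalization (0.90, adjusted p = 0.04), the authors' deposited values (0.90, adjusted p = 0.0406), normexp and quantile normalization (0.77, adjusted p = 0.0353), and without WT sham day 42 replicate 1 (1.19, adjusted p = 0.0101) or replicate 3 (1.01, adjusted p = 0.0328). Without replicate 2 it was 0.42 (adjusted p = 0.257).

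The dimmer Nfatc1 probe carries the transcript NM_016791 and the brighter one NM_198429. Differences on the dimmer probe were 1.15 ± 0.51 and 1.2 ± 0.51 in uMT mice at days 7 and 42, and 1.42 ± 0.51 and 1.53 ± 0.51 in WT mice, with adjusted p values between 0.0554 and 0.269. The gap between its change and that of the brighter probe was 0.34 and 0.57 in uMT mice and 0.72 and 0.66 in WT mice. Exact two-sided permutation tests of that gap gave p = 0.9, 0.1, 0.1 and 0.2 in that order, with 0.1 the smallest that 3 against 3 allows, and 0.2 the lowest after adjustment over the 4. Both probes lie on mm9 chromosome 18, at 80845439 to 80845498 and 80803664 to 80803723.

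Tnfsf11, the gene for RANKL, rose in uMT mice at day 42 and in WT mice at day 7. It was well above background on 12 arrays, of which 11 were CaCl2 arrays and 1 a uMT sham array at day 7. Its probe passed the filter through CaCl2 groups alone, WT at days 7 and 42 and uMT at day 42. Its entry into the test thus depended on groups where it was high. In uMT mice its level was 0.66, -3.84 and -4.92 after CaCl2 at day 7, against -4.58, -4.67 and -5.68 after sham. At day 42 it was -0.68, -1.92 and -2.65 after CaCl2 in uMT mice, against -5.96, -5.18 and -4.99 after sham. WT aortas at day 7 had -1.59, -1.01 and 0.37 after CaCl2, against -5.18, -5.01 and -5.08 after sham. At day 42 it was -2.88, -1.88 and -2.43 after CaCl2 in WT mice, against -4.76, -3.65 and -6.42 after sham. Groups overlap in uMT mice at day 7 alone.

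Where no sham array had Tnfsf11 well above background, the folds are bounds. CaCl2 aorta was at least 2.54-fold higher in uMT mice at day 42 (3.63 ± 0.97, adjusted p = 0.0242) and at least 14.7-fold higher in WT mice at day 7 (4.34 ± 0.97, adjusted p = 0.00985). Without WT sham day 42 replicate 2 both were called (adjusted p = 0.0131 and 0.00457). The uMT call at day 42 was lost when any of 5 of its 6 arrays was left out (adjusted p between 0.063 and 0.142), the exception being CaCl2 replicate 3, and with normexp and quantile normalization (1.01, adjusted p = 0.169) and with slide as a random block (3.66 ± 2.69, adjusted p = 1). The WT call at day 7 was lost without CaCl2 replicate 3 (3.79, adjusted p = 0.0735) and with slide as a fixed block (5.99 ± 1.91, adjusted p = 0.159) or a random block (5.64 ± 1.61, adjusted p = 0.114). In WT mice at day 42 the difference was 2.55 ± 0.97 (adjusted p = 0.091, at least 1.63-fold), and in uMT mice at day 7 it was 2.28 ± 0.97 (adjusted p = 0.254).

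The wide uMT spread at day 7 came from replicate 1. That array also had the highest level of Acp5 (8.27) and Ctsk (7.97) in its group and of the dimmer Nfatc1 probe (2.29) on any array. Its mean over the 6 smooth muscle markers was 4.66, against 7.09 and 7.78 on its group mates, and its macrophage mean was 4.12, against 3.20 and 2.70. Without it the uMT change at day 7 was 0.60 for Tnfsf11, 0.14 for Acp5 and -0.25 for Ctsk, with adjusted p values between 0.874 and 0.969. Smooth muscle marker levels ran opposite to Tnfsf11 on these 3 arrays, at 4.66 with 0.66 on replicate 1 and 7.78 with -4.92 on replicate 3, and their part in the result was not tested.

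**Figure D3:**
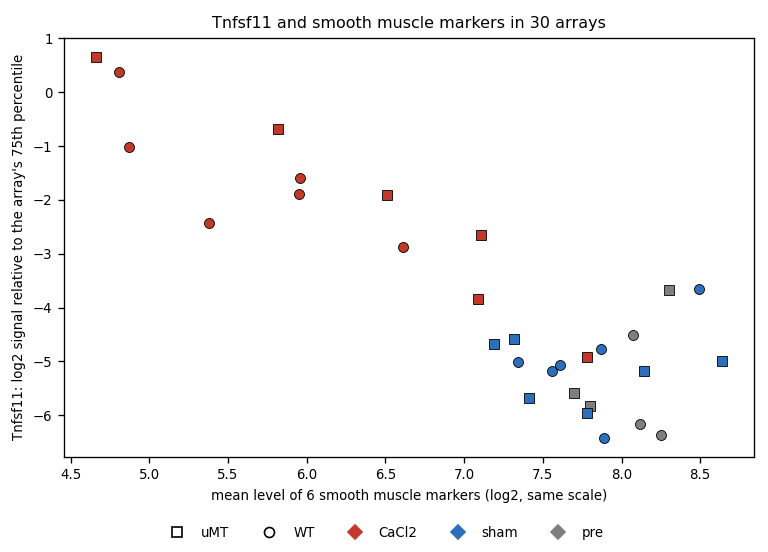
Level of Tnfsf11 (y axis, centred log2 intensity) against the mean level of 6 smooth muscle markers (x axis, same scale) on each of the 30 arrays; squares are uMT and circles WT, and colours give CaCl2, sham and pre. CaCl2 arrays run from uMT day 7 replicate 1, at 0.66 and 4.66, to uMT day 7 replicate 3, at -4.92 and 7.78, where the sham and pre arrays lie.

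No CaCl2 difference of the receptor or the decoy passed the test. Tnfrsf11a, RANK, had levels between 1.27 and 3.30 over all 30 arrays. After CaCl2 in uMT mice it averaged 2.78 ± 0.46 at day 7, against 1.88 ± 0.23 after sham, and 2.70 ± 0.48 at day 42, against 2.75 ± 0.40 (SD, n = 3 each). In WT mice it averaged 2.67 ± 0.35 at day 7, against 2.13 ± 0.23 after sham, and 2.04 ± 0.31 at day 42, against 2.15 ± 0.73. None of the 4 differences passed (adjusted p between 0.186 and 0.975), and at day 42 their 95% intervals were -0.74 to 0.65 in uMT mice and -0.80 to 0.58 in WT mice. The uMT difference at day 7, 0.90 ± 0.33, passed without WT sham day 42 replicate 2 (adjusted p = 0.0426). In uMT sham aorta at day 42 Tnfrsf11a was 2.29, 2.92 and 3.03, against 1.27, 1.78 and 1.83 in pre aorta, a rise of 1.12 ± 0.33 or 2.18-fold (adjusted p = 0.0241, and 0.00282 without that array). That call was lost without uMT pre replicate 1 (0.95, adjusted p = 0.12), without uMT sham day 42 replicate 2 (1.04, adjusted p = 0.112) or replicate 3 (0.98, adjusted p = 0.0881), and in a fit of the 2 groups alone (adjusted p = 0.0589). Fibroblast markers were lower in the same comparison: the mean level of 5 markers was between 2.96 and 4.32 in uMT sham aorta at day 42, against 5.14 to 5.27 in pre aorta. Of these markers, 4 of 5 fell, by 1.49 (Dcn, -1.49, adjusted p = 0.0135) to 1.88 (Dpt, -1.88, adjusted p = 0.00559), where 17.4% of all genes were called in either direction. Without WT sham day 42 replicate 2, 5 of 5 fell, against 40.3% of all genes. Tnfrsf11a ran opposite to array brightness, with r = -0.405 between its level and the log2 75th percentile over 30 arrays (-0.327 without WT sham day 42 replicate 2). The 75th percentiles were 231, 121 and 95.7 units on the uMT sham arrays at day 42, against 174, 90.7 and 312 on the uMT pre arrays. The part of fibroblast markers and of brightness in the rise of Tnfrsf11a was not tested.

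Tnfrsf11b, osteoprotegerin, is made by vascular smooth muscle and by stromal cells. Its level in uMT mice was 0.58, 1.61 and 2.15 after CaCl2 at day 7, against 1.80, 1.57 and 1.39 after sham, and 1.18, 1.63 and 1.94 at day 42, against 1.23, 0.06 and 1.1. WT aortas had 2.01, 1.11 and 1.5 after CaCl2 at day 7, against 1.19, 1.93 and 1.04 after sham, and 2.38, 3.14 and 0.49 at day 42, against 0.75, -1.41 and 1.88. The groups overlap in all 4 comparisons. The changes were -0.14 ± 0.62 and 0.78 ± 0.62 in uMT mice (adjusted p = 0.944 and 0.585) and 0.16 ± 0.62 and 1.60 ± 0.62 in WT mice (adjusted p = 0.929 and 0.0998). The last of these passed without WT sham day 42 replicate 3 (2.34, adjusted p = 0.0131) or WT CaCl2 day 42 replicate 3 (2.36, adjusted p = 0.0263), and was 0.69 (adjusted p = 0.45) without WT sham day 42 replicate 2, which had the only negative level, -1.41. At day 7 the 95% intervals of the change were 2.33 to 6.36 for Tnfsf11 and -1.14 to 1.45 for Tnfrsf11b in WT mice. At day 42 in uMT mice they were 1.61 to 5.64 for Tnfsf11 and -0.52 to 2.08 for Tnfrsf11b.

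Calcr, the calcitonin receptor of mature osteoclasts, was dim: it was well above background on 15 arrays. Its probe passed the filter through WT CaCl2 aorta at days 7 and 42 and uMT sham and CaCl2 aorta at day 42. Its entry into the test thus depended on groups where it was high. In uMT mice its level was -2.57, -4.11 and -2.95 after CaCl2 at day 7, against -5.95, -6.77 and -6.63 after sham, and 0.66, -0.63 and -2.29 at day 42, against -3.14, -0.63 and -2.28. WT aortas had -3.57, -3.58 and -3.75 after CaCl2 at day 7, against -7.10, -6.58 and -5.71 after sham, and -3.59, -3.62 and -2.69 at day 42, against -5.21, 0.20 and -6.36. The day 7 groups are apart in both genotypes and the day 42 groups overlap in both.

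The day 7 differences for Calcr were 3.24 ± 1.08 in uMT mice (adjusted p = 0.144) and 2.83 ± 1.08 in WT mice (adjusted p = 0.126), and both passed without WT sham day 42 replicate 2 (adjusted p = 0.0119 and 0.0103), as did WT mice at day 42 (2.48, adjusted p = 0.0461). In uMT sham aorta at day 42 it rose by 3.48 ± 1.08 against pre aorta, at least 2.99-fold (adjusted p = 0.031, and 0.00072 without that array). That call ended with normexp and quantile normalization (0.80, adjusted p = 0.238), with quantile normalization alone (adjusted p = 0.0513), with the authors' values (0.0514) and without any of uMT pre replicates 1 and 3 or uMT sham day 42 replicates 2 and 3 (0.0631 to 0.172). Calcr ran opposite to array brightness, with r = -0.735 between its level and the log2 75th percentile over 30 arrays (-0.691 without WT sham day 42 replicate 2). Its 2 highest levels, 0.66 and 0.20, lay on arrays with 75th percentiles of 82.3 and 36.1 intensity units. In processed signal these were 130 and 41.5 units, against 3.12 to 6.75 on the sham arrays of both genotypes at day 7. Fibroblast markers fell in that same sham against pre comparison, as given for Tnfrsf11a. The part of brightness and of fibroblast markers in the Calcr result was not tested.

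**Figure D4:**
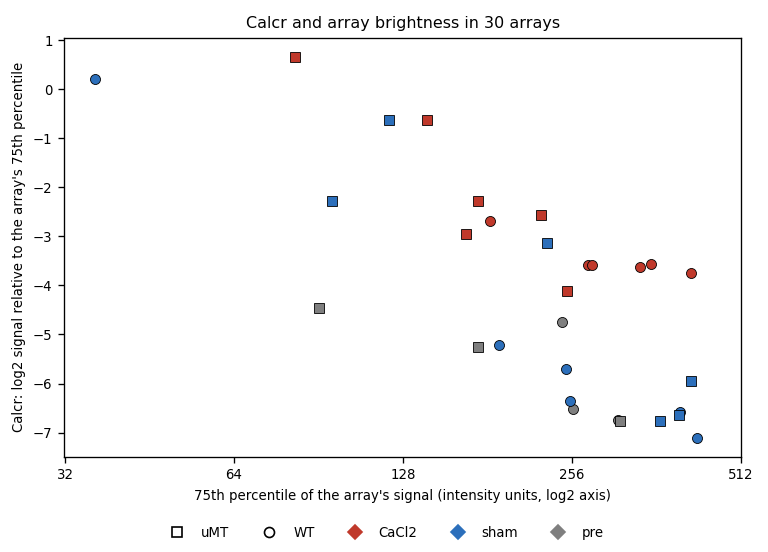
Level of Calcr (y axis, centred log2 intensity) against the 75th percentile of signal of the same array (x axis, intensity units, log2 axis) for 30 arrays; squares are uMT and circles WT, and colours give CaCl2, sham and pre. The 2 highest points, 0.66 for uMT CaCl2 day 42 replicate 1 and 0.20 for WT sham day 42 replicate 2, lie at 82.3 and 36.1 units.

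Later against earlier CaCl2 aorta was compared on a single slide in each genotype. At day 42 against day 7, 0 of 8 genes passed in uMT mice, where 0.971% of all genes did, and 0 of 8 in WT mice, where 0.55% did. Tnfsf11 was lower at day 42 in WT mice by 1.65 ± 0.97 without overlap of the arrays (-1.65, adjusted p = 0.972), and differed by 0.95 ± 0.97 in uMT mice (adjusted p = 0.731). When WT sham day 42 replicate 2 was left out, Calcr was higher at day 42 in uMT mice, at 2.46 ± 0.72 (adjusted p = 0.0381), so that 1 of 8 passed there against 8.27% of all genes, and 0 of 8 in WT mice against 0.971%. The 75th percentiles of the uMT CaCl2 arrays were 82.3, 141 and 174 units at day 42 and 226, 251 and 166 at day 7. The part of array brightness in this Calcr difference was not tested. The counts of 0 in the fit of all arrays stand beside 2 genes with an unadjusted p under 0.05 in uMT mice, Atp6v0d2 (0.027) and Calcr (0.0328), and 0 in WT mice. The share over all genes at that unadjusted threshold was not taken.

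No difference between uMT and WT mice passed in the fit of all arrays. For the CaCl2 response in uMT relative to WT mice, 0 of 8 passed at day 7, where 0% of all genes did, and 0 of 8 at day 42, where 0.107% did. No gene of the 8 had an unadjusted p under 0.05 at either day, a threshold at which the share over all genes was not taken. The largest estimate was that of Tnfsf11 at day 7, -2.06 ± 1.37, with a 95% interval from -4.91 to 0.79, so that differences of several-fold lie within the error. Without WT sham day 42 replicate 2 the count was again 0 of 8 at both days, against 0% and 0.447% of all genes.

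After CaCl2 itself, 0 of 8 differed between uMT and WT mice at day 7 against 0.219% of all genes, and 0 of 8 at day 42 against 1.31%, with unadjusted p values under 0.05 for Atp6v0d2 at day 7 (0.0102) and Calcr at day 42 (0.0276). The uMT CaCl2 arrays all lay on a slide that held no WT array, so slide and genotype cannot be told apart after CaCl2. Without uMT CaCl2 day 7 replicate 1, Atp6v0d2 was lower in uMT mice at day 7 by 2.95 (-2.95, adjusted p = 0.0268) and Tnfsf11 by 3.63 (-3.63, adjusted p = 0.00777). Averaged over the 5 conditions, n = 15 arrays per genotype, 0 of 8 passed against 2.97% of all genes, and Calcr alone had an unadjusted p under 0.05 (0.0405). For these comparisons the share over all genes at the unadjusted threshold was not taken. Without WT sham day 42 replicate 2, Calcr was higher in uMT mice at day 42 after CaCl2, by 2.55 ± 0.72 (adjusted p = 0.0217, 1 of 8 against 15.4%), and on average by 1.45 ± 0.33 (adjusted p = 0.00515, 1 of 8 against 25.9%). At day 7 after CaCl2 that fit called 0 of 8, against 1.94%. The 75th percentiles of the CaCl2 arrays at day 42 were 82.3, 141 and 174 units in uMT mice, against 278, 338 and 183 in WT mice. Calcr ran opposite to array brightness, and the part of brightness in these Calcr differences was not tested.

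Of 13 measured further osteoclast genes, 0 and 2 rose in uMT mice at days 7 and 42 and 3 and 5 in WT mice, against 0.894% and 6.33% of all genes in uMT mice and 6.59% and 10.4% in WT mice called in either direction, and none fell. Dcstamp, the transmembrane protein needed for precursors to fuse, rose by 3.62 ± 0.80 in uMT mice at day 42 (adjusted p = 0.00749), and by 2.67 ± 0.80 and 3.23 ± 0.80 in WT mice at days 7 and 42 (adjusted p = 0.0457 and 0.0117). Its partner Ocstamp rose by 2.09 ± 0.55 in WT mice at day 7 (adjusted p = 0.0241). Tcirg1, the a3 subunit of the proton pump, rose by 1.41 ± 0.41 in uMT mice (adjusted p = 0.0418) and 1.90 ± 0.41 in WT mice (adjusted p = 0.00509) at day 42. Plekhm1, which guides vesicles in osteoclasts, rose in WT mice by 0.96 ± 0.26 at day 7 (adjusted p = 0.0297) and 1.05 ± 0.26 at day 42 (adjusted p = 0.0127). Snx10, a sorting nexin, rose by 1.47 ± 0.43 there (adjusted p = 0.0306), and not without WT sham day 42 replicate 2 (0.94, adjusted p = 0.134). The median change of the list was 0.46 and 0.73 in uMT mice and 0.96 and 0.85 in WT mice. Without that array the counts were 1 and 5 in uMT mice and 6 and 3 in WT mice, against 9.82% and 15% of all genes in uMT mice and 18.4% and 12.3% in WT mice. In sham against pre aorta at day 7, Dcstamp rose by 3.56 ± 0.80 in WT mice (adjusted p = 0.0135) and was not called in uMT mice. Tcirg1 rose there by 1.69 and 1.75 in uMT and WT mice (adjusted p = 0.031 and 0.0198). Ocstamp, Plekhm1 and Snx10 were called in neither genotype. The part of macrophage markers in the changes of this list was not tested.

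The 20 genes of RANK signalling and its co-receptors had medians of 0.42 and 0.92 in uMT mice and 1.09 and 1.13 in WT mice. Those that rose numbered 1 and 6 in uMT mice and 2 and 8 in WT mice, against 0.894% and 6.33% of all genes in uMT mice and 6.59% and 10.4% in WT mice, and 1 fell in WT mice at day 42. The kinase Btk rose by 3.01 ± 0.66 and 3.06 ± 0.66 in uMT mice at days 7 and 42 (adjusted p = 0.0348 and 0.00648) and by 3.39 ± 0.66 in WT mice at day 7 (adjusted p = 0.00512). The receptor Trem2 and its adaptor Tyrobp, which give the co-stimulation that osteoclasts need, rose in WT mice at day 42 by 3.57 ± 0.67 (adjusted p = 0.00178) and 3.42 ± 0.77 (adjusted p = 0.00654). Trem2 rose by 2.27 ± 0.67 in uMT mice at day 42 (adjusted p = 0.0421). The adaptor Fcer1g rose by 2.41 ± 0.72 in uMT mice and 3.12 ± 0.72 in WT mice at day 42 (adjusted p = 0.0448 and 0.00734), and Blnk by 2.41 ± 0.54 and 2.70 ± 0.54 (adjusted p = 0.00824 and 0.00273). Gab2, a scaffold of RANK signalling named here as the only one that fell, was lower by 1.72 in WT mice at day 42 (-1.72 ± 0.26, adjusted p = 0.000339). Prdm1, a repressor that lifts the brakes on Nfatc1, rose by 1.66 ± 0.49 in WT mice at day 7 (adjusted p = 0.0416). With WT sham day 42 replicate 2 left out, 2 and 11 rose in uMT mice and 7 and 7 in WT mice, where 1 fell at day 42, against 9.82% and 15% of all genes in uMT mice and 18.4% and 12.3% in WT mice. In sham against pre aorta at day 7, Trem2 rose by 3.38 and 5.26 in uMT and WT mice (adjusted p = 0.00937 and 6.85e-05). Tyrobp, Fcer1g and Blnk rose there by 3.53, 2.93 and 2.86 in WT mice (adjusted p between 0.00363 and 0.0262) and were not called in uMT mice. Btk, Prdm1 and Gab2 were called in neither genotype. The part of macrophage markers in the changes of this list was not tested.

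Among 12 measured macrophage growth factors and signals known to induce RANKL, 1 and 6 rose in uMT mice at days 7 and 42 and 4 and 3 in WT mice, against 0.894% and 6.33% of all genes in uMT mice and 6.59% and 10.4% in WT mice, and none fell. Il1b, an inflammatory cytokine, rose in all 4 comparisons, by 3.36 ± 0.81 and 6.25 ± 0.81 in uMT mice (adjusted p = 0.0484 and 8.46e-05) and by 4.78 ± 0.81 and 4.42 ± 0.81 in WT mice (adjusted p = 0.00226 and 0.0015). Il6 rose by 3.85 ± 1.07 in uMT mice at day 42 (adjusted p = 0.0305) and by 4.39 ± 1.07 in WT mice at day 7 (adjusted p = 0.0156). Il11, a cytokine of the same family, rose by 2.22 ± 0.59 in WT mice at day 7 (adjusted p = 0.0242), and Tnf by 2.86 ± 0.58 in uMT mice at day 42 (adjusted p = 0.00375). Vdr, the vitamin D receptor, rose by 2.15 ± 0.55 in uMT mice at day 42, at least 1.75-fold (adjusted p = 0.0196), and 1.88 ± 0.55 in WT mice at day 7 (adjusted p = 0.0415). Csf1r, the receptor for the growth factor M-CSF and also one of the macrophage markers, and Il34, its alternative ligand, rose in WT mice at day 42 by 1.85 ± 0.40 (adjusted p = 0.00481) and 1.74 ± 0.50 (adjusted p = 0.0256). When WT sham day 42 replicate 2 was left out, Il34 no longer passed there (1.26, adjusted p = 0.104), and the counts were 3 and 7 in uMT mice and 5 and 3 in WT mice, against 9.82% and 15% of all genes in uMT mice and 18.4% and 12.3% in WT mice. The list's median change was 0.62 and 1.69 in uMT mice and 0.98 and 1.06 in WT mice.

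Of 7 measured inhibitors of osteoclast formation, 3 rose in uMT mice and 2 in WT mice at day 42, against 6.33% and 10.4% of all genes called, and 0 in either genotype at day 7, against 0.894% and 6.59%. Irf8, which represses Nfatc1, rose by 1.85 ± 0.51 in uMT mice (adjusted p = 0.0281) and 2.72 ± 0.51 in WT mice (adjusted p = 0.0017). Tnfaip3, a brake on NF-kB, rose by 1.79 ± 0.48 in uMT mice (adjusted p = 0.0244). Median changes were 0.09 and 0.44 in uMT mice and 1.2 and 0.60 in WT mice. Without WT sham day 42 replicate 2, 0 and 3 rose in uMT mice and 4 and 2 in WT mice, where 1 fell at day 7, against 9.82% and 15% of all genes in uMT mice and 18.4% and 12.3% in WT mice.

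Calcr forms amylin receptors with the RAMP proteins, and its relative Calcrl forms receptors for adrenomedullin and CGRP with them. Of these 4 partner genes, Ramp3 rose by 2.58 ± 0.52 in uMT mice at day 42 (adjusted p = 0.00368) and by 3.30 ± 0.52 and 2.47 ± 0.52 in WT mice at days 7 and 42 (adjusted p = 0.00163 and 0.00383). Ramp1, which is found in vascular smooth muscle, fell by 2.98 in WT mice at day 7 (-2.98 ± 0.62, adjusted p = 0.00749). In uMT mice at day 7 the Ramp1 difference was -2.52 ± 0.62 (adjusted p = 0.052, or 0.019 without WT sham day 42 replicate 2), and none of the 4 passed in the fit of all arrays, against 0.894% of all genes. Leaving that array out gave 0 higher and 1 lower in uMT mice at day 7 and 1 and 1 at day 42, against 9.82% and 15% of all genes called in either direction. In WT mice it gave 1 and 1 at day 7 and 1 and 0 at day 42, against 18.4% and 12.3%. Their median change was -0.77 at both days in uMT mice, and 0.30 and 0.47 in WT mice.

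Likeness over the 30 arrays was described for each gene by Pearson's r of log2 levels, in which the arrays of a group share treatment and often slide. Acp5 and Ctsk had r = 0.951 with each other (0.949 without WT sham day 42 replicate 2). Atp6v0d2 was closest to Stra6l (0.981), Syngr1 (0.975) and Mmp12 (0.975), the gene of macrophage elastase. Acp5 was closest to Litaf (0.963), Sgpl1 (0.961) and Gpr137b-ps (0.957), and Ctsk to Apobr (0.975), Fam107b (0.966) and Abca1 (0.966), a cholesterol exporter. Tnfsf11 was closest to Brinp3 (0.928), Tnn (0.926) and Edil3 (0.917). The decoy Tnfrsf11b was closest to Rarres1 (0.809), Pcdhb21 (0.807) and Scara3 (0.805), values that dropped to 0.682, 0.638 and 0.629 without that array. Nfatc1 was closest to Osmr (0.881), a receptor chain for oncostatin M, followed by Mrtfa (0.871) and Tap2 (0.871). Tnfrsf11a was closest to N4bp2 (0.886), Setd1b (0.878) and Tanc1 (0.872), and Calcr to A330093E20Rik (0.97), Cryba1 (0.968) and Cass4 (0.967).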

How the data were processed

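Total RNA of 30 samples of mouse aorta had been hybridised singly, with Cy3, to Agilent SurePrint G3 8x60K arrays. The deposited scanner files hold a processed signal intensity per spot, which per the file headers came from Feature Extraction 10.7.1.1. The submitters' processing notes name version 9.5.1.1. Here control spots were left out (59305 spots remained), spots of a probe averaged, 24 of 55681 probes dropped for flags, and the log2 intensity was centred on each array's 75th percentile. A probe was kept if well above background on all 3 arrays of a group (33228 of 55657), and each gene name took its kept probe of highest mean level. Number of arrays limits the precision.

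One mean per group was fitted to all 30 arrays with limma 3.58.1 in R 4.3.3 (20 residual degrees of freedom, empirical Bayes, Benjamini-Hochberg over 23268 gene names, threshold 0.05). A fold is a lower bound where one group was nowhere well above background: the brighter group's mean was set against the higher of the dim probe's own level and the lowest level well above background on each array. In data simulated for CaCl2 against sham in WT mice at day 42, over 23268 genes, 14, 34, 43 and 49 of 50 genes with log2 changes of 1, 2, 3 and 4 were recovered, and 8 of 148 calls were unchanged genes. The simulated noise was independent, with the same spread for a gene on every array. It held no slide effect and no array that stood apart, so these counts do not carry over to the real comparison.

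The 8 genes and the lists around them were chosen with earlier results of these data known. All 8 genes are named. Of each list, up to 4 genes with the largest change among those called are named per comparison of CaCl2 with sham, and 3 genes per member for likeness. The values of 1 gene of the inhibitor list are not reported here. Replicate numbers did not pair the samples: in 0 of 12 comparisons was every same-number correlation over 0.1 (-0.5 to 0.29). Alternatives covered normalization, filters, probe choice, the arrays in the fit, replicate and slide blocks, and arrays left out. Python 3.11.15 and matplotlib 3.10.9 drew the figures.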

Additional observations from a re-analysis of the deposited data

How the results depend on the processing

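Counts below are of the 8 genes called in a comparison. For CaCl2 against sham in WT mice at day 7, where 1 was called, the count was 0 with a filter of 15 arrays (which drops Tnfsf11) and with slide as a random or a fixed block, 6 with only the groups compared, 4 with pre in place of sham, and 5 with slide as a random block without the array alone on its slide, a setting chosen after seeing the data. In WT mice at day 42, with 3 called, it was 5 with quantile normalization and with the authors' deposited values, and 0 with only the groups compared, with slide as a random or fixed block and within the slide that holds both groups. In uMT mice at day 7, with 0 called, it was 2 with pre in place of sham and 3 with the random block without the lone array. In uMT mice at day 42, with 1 called, it was 2 with normexp and quantile normalization and with only the groups compared, 0 with the 15-array filter and the random block, 6 with pre in place of sham and 5 with the random block without the lone array. For day 42 against day 7 after CaCl2 in uMT mice, the 0 became 1 with the fixed block and 1 with the random block without the lone array. That last setting also gave 1 and 2 for uMT against WT after CaCl2 at days 7 and 42, and 2 for the mean of 5 conditions, all 0 in the fit of all arrays. For sham against pre at day 7, the 1 in uMT mice became 2 with only the groups compared and 2 with the random block without the lone array, and the 1 in WT mice became 3 with only the groups compared and 2 with each slide block. For sham against pre at day 42 in WT mice, the 1 became 0 with normexp and quantile normalization and with only the groups compared. The cause was not tested.

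Leaving out each array in turn gave 0 to 3 and 0 to 4 for CaCl2 against sham in uMT mice at days 7 and 42, and 0 to 4 and 2 to 5 in WT mice. It gave 0 to 1 in uMT mice and 0 to 0 in WT mice for day 42 against day 7, 0 to 0 for both differences in CaCl2 response, 0 to 2 and 0 to 1 for uMT against WT after CaCl2, and 0 to 1 for the mean of 5 conditions. For sham against pre it gave 1 to 2 and 1 to 3 in uMT mice, and 1 to 2 and 1 to 3 in WT mice. Tnfrsf11a in uMT mice at day 42 turned to 1.08 (adjusted p = 0.0169) with pre in place of sham. With the replicate number as a block the counts were the same, 1 and 3 in WT mice and 0 and 1 in uMT mice for CaCl2 against sham. Of 210 alternative values of called results, 168 stayed called in the same direction. Calls over all genes ranged, on leaving out 1 array, from 4 to 2284 in uMT mice at day 7, 496 to 3494 in uMT mice at day 42, 233 to 4283 in WT mice at day 7 and 1286 to 6220 in WT mice at day 42. The fixed slide block could not be fitted for CaCl2 against sham in uMT mice, for the differences in CaCl2 response or for uMT against WT. Array weights were tried after seeing the data and gave no converged fit. Signal over background limits Tnfsf11 and Calcr, well above background on 12 and 15 arrays.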
